A study of Mus musculus with 4 samples.

Results

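The 57 genes described here, of 22552 in the tables, are those whose transcript was listed at exactly 0 FPKM in both Sox30 knockout libraries of mouse round spermatids while it was clearly present in the wild type. FPKM counts fragments relative to transcript length and to the number of mapped fragments, so levels are per length. Sox30 encodes a transcription factor of the SOX family, whose members bind DNA through a high-mobility-group box and recognise short AT-rich sites. In the testis it is made in late meiotic and early haploid germ cells, and male mice without it do not make sperm. Round spermatids are the haploid cells that follow meiosis. They transcribe a large set of germ-cell genes, many of whose mRNAs are stored for the later shaping of the sperm head and tail.

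The members were chosen by value and by name. A symbol was kept if it stood at 0 in both knockout libraries and at a mean of at least 10 FPKM over the wild-type libraries, which 115 of the 4288 symbols of that wild-type level did (2.68%). Symbols of some families (ending Rik, or starting Dnaj, Rnf, Tssk, Zfp, Slc, Spata, Tex or Hist) and a few single genes were then dropped by name, 58 in all, which left 57 genes. Since the choice rests on the values of all 4 libraries, the levels below are a description and carry no test of knockout against wild type, and no fold change is given against a level of 0. In a limma fit over all 9124 genes with a mean of at least 1 FPKM, 13.4% were lower in the knockout and 1.95% higher at an adjusted p under 0.05. All 57 members are among the lower genes, and nothing is read from this, since the rule used the same contrast.

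Testes of male mice aged 23 days were the source of all libraries, and haploid cells were taken from them by fluorescence sorting after a Hoechst stain for DNA. Wild-type mice gave 2 libraries and Sox30 knockout mice gave 2, and the design text puts the most advanced cells of that age at step 3 spermatids. The strain label reads DBA/C57/ICR and DBA/C59/ICR for the wild-type libraries and DBA/C58/ICR and DBA/C60/ICR for the knockout libraries, and it was not used. The labels do not say how the knockout allele was made, nor whether each library of a genotype was made from other animals. The p-values cover only library-to-library spread, which may be technical.

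Some facts of the whole series touch these genes. Sox30 itself stood at 11.4 and 16.2 FPKM in wild-type cells and at 1.46 and 3.16 FPKM in knockout cells. The number of symbols listed at 0 was 6414 and 5915 for wild-type cells, with 9329 and 11112 for knockout cells, and read depth is unknown. Of 38 genes that most cells use, none was at 0 in both knockout libraries, but Pgk1 and Gusb were at 0 in knockout library 2 and Tfrc in knockout library 1, each with a wild-type mean under 2 FPKM. A listed 0 is therefore not taken here as proof that the transcript was absent. For scale, the lowest 5% of values above 0.001 FPKM lay at or under 0.0409 and 0.0440 FPKM in the knockout libraries, and the lowest wild-type value of any member was 7.80 FPKM. Marker genes of cell types also differed. All 12 markers of elongating spermatids, some of which round spermatids already transcribe, had a lower mean in the knockout, and they summed to 14760 and 8854 FPKM in wild-type cells and to 60.5 and 36.4 FPKM in the knockout. Of 17 round spermatid markers, 15 had a lower mean in the knockout. Their median was 213 and 237 FPKM against 19.99 and 20.5 FPKM, while their sum, carried by abundant genes such as Zpbp2 and Tekt1, was 4823 and 4382 against 2713 and 1714 FPKM. Catsper1, 1 of these markers, is a member. Of 14 spermatocyte markers, 10 had a lower mean in the knockout, and the median was 31.1 and 26.2 against 14.7 and 18.5 FPKM. Their sum went the other way, from 1076 and 1060 to 1503 and 1095 FPKM, through Ybx2, Ccna1 and Aurka. Of 8 Leydig cell markers, 6 were at 0 in both knockout libraries. So were 8446 of all 22552 symbols, of which 4762 were at 0 in all 4 libraries. These 6 markers had wild-type means of at most 2.95 FPKM, and Hsd17b3 was at 0 in all 4 libraries. Insl3 made up most of the Leydig markers' sum of 60.3 and 37.3 FPKM in wild-type cells. The haemoglobin gene Hba-a1 was at 220 and 109 FPKM in wild-type cells and at 7.45 and 1.42e-06 FPKM in knockout cells, whereas the 5 macrophage genes listed (Cd68, Csf1r, C1qa, C1qb and Lyz2) were each under 1 FPKM in every library. Of 12 spermatogonial markers 10 had a lower mean in the knockout and 5 were at 0 in both knockout libraries. These 5 had wild-type means of at most 6.34 FPKM. Of 12 Sertoli cell markers 9 had a lower mean. Their sum of 94.3 and 259 against 81.3 and 29.5 FPKM was mostly Clu. Of 8 peritubular and vascular markers 5 had a lower mean. So did 22 of the 38 genes that most cells use. In the limma fit the median log2 change over all 9124 genes tested was -0.23. The part of these differences in the members' values was not tested, and in bulk samples fewer cells of a type and less RNA per cell cannot be told apart.

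SOX proteins bind variants of a short core, so the promoters of the members are shown first. Promoter sequences, from 250 bases before to 50 after the start, were taken from RefSeq (GRCm38.p6) for the 41 members that had an entry. The letters AACAAT and ACAATG, which overlap where they follow each other, were searched on both strands. The 5 members of highest wild-type level with such a match in the last 120 bases before the start are printed below, with the match in capitals, followed by Acot10, which has none there and is a near copy of Acot9. The windows are BC048562 at chr9:108436362-108436481 (plus strand), Tepp at chr8:95311478-95311597 (plus), Ica1 at chr6:8778485-8778604 (minus), Acot9 at chrX:155262323-155262442 (plus), Spem1 at chr11:69822166-69822285 (minus) and Acot10 at chr15:20666751-20666870 (minus).
BC048562: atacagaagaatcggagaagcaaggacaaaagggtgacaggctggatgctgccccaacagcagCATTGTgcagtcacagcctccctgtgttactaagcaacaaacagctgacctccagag
Tepp: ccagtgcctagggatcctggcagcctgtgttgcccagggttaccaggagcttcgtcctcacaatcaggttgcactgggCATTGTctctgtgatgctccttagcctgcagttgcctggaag
Ica1: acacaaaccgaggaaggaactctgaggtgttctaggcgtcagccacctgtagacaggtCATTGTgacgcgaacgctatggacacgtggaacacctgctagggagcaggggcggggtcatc
Acot9: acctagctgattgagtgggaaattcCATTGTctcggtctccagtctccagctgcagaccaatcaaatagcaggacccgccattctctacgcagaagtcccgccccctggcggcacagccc
Spem1: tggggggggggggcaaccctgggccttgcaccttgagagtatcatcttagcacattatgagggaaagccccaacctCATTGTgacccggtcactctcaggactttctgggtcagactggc
Acot10: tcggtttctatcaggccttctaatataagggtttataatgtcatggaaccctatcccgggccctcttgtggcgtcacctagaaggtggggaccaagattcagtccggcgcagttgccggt

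In each of these 5 windows the match was CATTGT, that is ACAATG on the other strand. Of the 41 promoters, 15 (36.6%) held AACAAT or ACAATG starting in the last 120 bases before the start, as did 6.23% of the promoters of other genes of at least 10 FPKM and 8.0% of all. In the whole 300 bases 20 (48.8%) held either of them. The same was true of 14.7% of the promoters of 3420 other genes with a wild-type mean of at least 10 FPKM, and of 19.1% of all 27025 promoters. By motif, AACAAT was in 26.8% of the members' promoters, 7.69% of the other genes' and 10.9% of all, and ACAATG in 39.0%, 9.85% and 12.8%. The full cAMP response element TGACGTCA was in 0 of the 41, in 4.09% of the other genes' promoters and in 1.88% of all. Its core TGACG was in 19.5%, 33.7% and 21.0%, the X-box part GTTGCCA in 17.1%, 6.75% and 4.46% (but in 0% of the members with a wild-type mean of at least 20 FPKM), the TATA box TATAAA in 14.6%, 7.78% and 14.2%, and CCAAT in 36.6%, 41.8% and 37.9%. As a check over the whole set these shares are void, because only 71.9% of the members and 80.8% of the other genes had a promoter entry. Base composition differed too: the median GC content was 50.3% in the members' promoters and 58.7% in those of the other genes. The median count of the letters CG, which TGACGTCA and TGACG contain, was 4 in the members' promoters, 20 in the other genes' and 7 in all. The part of this in the motif shares was not tested. Among promoters under 50% GC, AACAAT or ACAATG was in 10 of 18 members and in 169 of 565 other genes. A match is a string of letters and does not show binding.

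The wild-type levels of the 57 genes ranged from 10.1 to 164 FPKM with a median of 15.8 FPKM. Most were of modest level: 37 lay between 10 and 20 FPKM, 12 between 20 and 50, 6 between 50 and 100, and 2 at 100 FPKM or more. Their summed FPKM was 0.324% and 0.286% of the total in the wild-type libraries. The members were assigned to kinds by function or family. There were 11 genes of sperm head and tail structure, 12 of enzymes and signalling proteins, and 6 of nuclear and chromatin proteins. Membrane and ion transport proteins had 6, proteases and their inhibitors 7, and 15 genes were little described or uncertain. The plot of wild-type levels by gene shows every member.

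**Figure D1:**
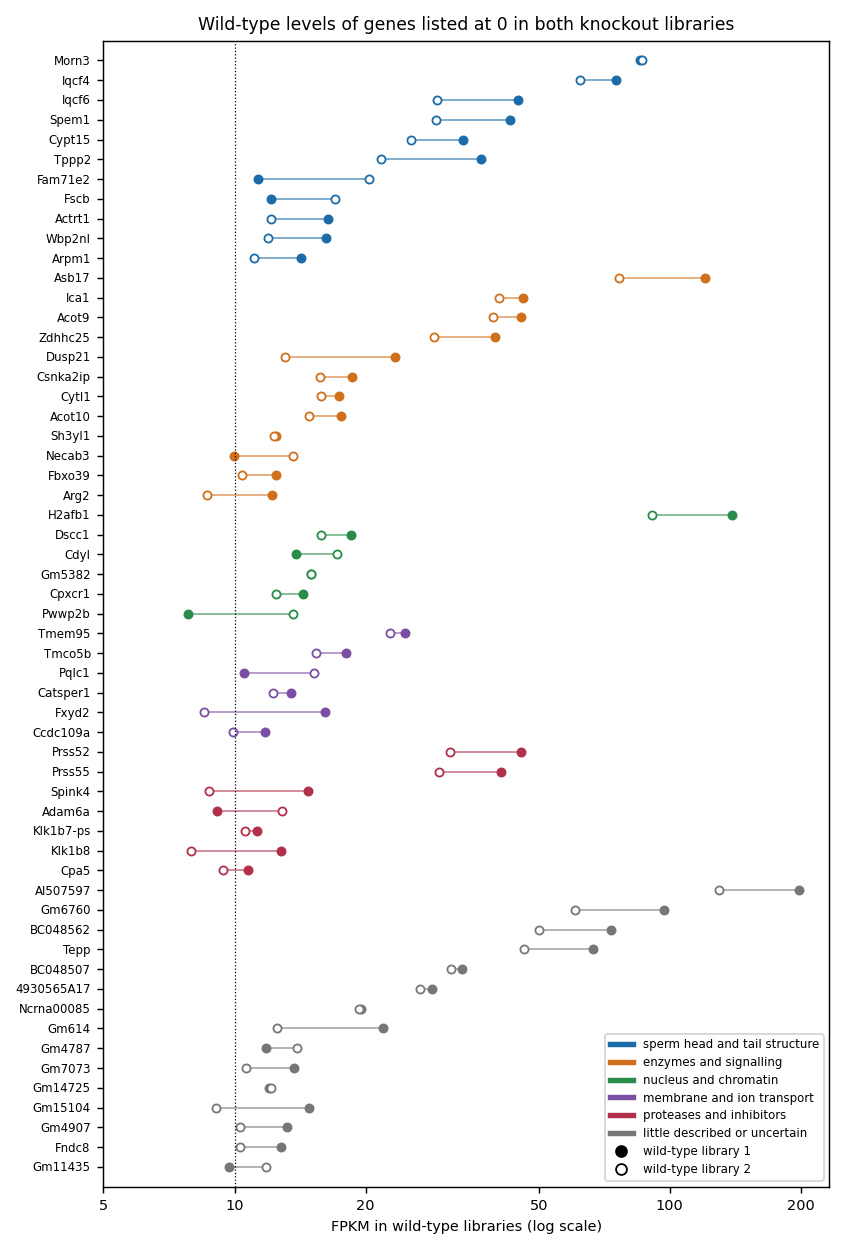
FPKM of the 57 genes in wild-type library 1 (filled) and library 2 (open), on a log axis, grouped by kind and joined by a line; both knockout libraries are at 0 for every gene and cannot be drawn on this axis. The dotted line marks 10 FPKM, and AI507597 and H2afb1 stand highest.

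Among the structural genes Morn3, a protein with MORN repeats, was the most abundant, at 85.2 and 86.5 FPKM in wild-type cells. Iqcf4 and Iqcf6 belong to a family with IQ motifs, which bind calmodulin, and stood at 75.4 and 62.2 FPKM and at 44.9 and 29.2 FPKM. Spem1, needed for the sperm head to shed cytoplasm and straighten, was at 42.8 and 29.0 FPKM. Several other members of this kind belong to the perinuclear theca, the rigid shell around the sperm nucleus. Cypt15, of the cysteine-rich theca proteins, was at 33.4 and 25.4 FPKM. The theca actin-related genes Actrt1 and Arpm1 (Actrt3 in RefSeq) were at 16.4 and 12.1 FPKM and at 14.2 and 11.1 FPKM. Wbp2nl, a protein of the postacrosomal sheath, was at 16.2 and 11.9 FPKM. Tail and microtubule proteins were present as well. Tppp2, of a family that promotes tubulin polymerisation, was at 36.8 and 21.7 FPKM, and Fscb, which binds CABYR in the fibrous sheath, at 12.2 and 17.1 FPKM. Fam71e2 completed the 11, at 11.3 and 20.3 FPKM.

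Enzymes and signalling genes included a phosphatase and a pair of thioesterases. Dusp21, an atypical dual-specificity phosphatase that removes phosphate from tyrosine as well as serine and threonine, was at 23.4 and 13.0 FPKM in wild-type cells. Acot9, a mitochondrial acyl-CoA thioesterase that splits fatty acyl-CoA into fatty acid and coenzyme A, was at 45.6 and 39.3 FPKM. The related Acot10 was at 17.6 and 14.9 FPKM. Acot9 lies on the X chromosome and has 15 exons in the GENCODE annotation, whereas Acot10 lies on chromosome 15 and has 1. Their coding sequences, both of 1317 bases, agreed at 1280 positions (97.2%). Reads can therefore be shared or split between them, and their separate values are uncertain.

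Some of the other genes of this kind belong to families that act in protein modification. Asb17, an ankyrin and SOCS box protein of the kind that brings substrates to ubiquitin ligases, was the third most abundant member at 120 and 76.6 FPKM, and the F-box gene Fbxo39 was at 12.5 and 10.4 FPKM. Ica1, whose BAR domain binds curved membranes, was at 46.1 and 40.6 FPKM. Zdhhc25, of the palmitoyltransferase family, was at 39.6 and 28.8 FPKM. Other members of this kind are not restricted to germ cells. Arg2, the mitochondrial arginase, was at 12.2 and 8.67 FPKM and Sh3yl1, a phosphoinositide-binding protein, at 12.5 and 12.3 FPKM. Csnka2ip, Cytl1 and Necab3 made up the 12, with wild-type means between 11.8 and 17.2 FPKM.

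Of the 6 nuclear genes, H2afb1 was far more abundant than the rest. It encodes a short histone H2A variant of the germ line and stood at 139 and 90.8 FPKM. Gm5382 is H2al1n in RefSeq, of the H2A-like family of spermatids, and stood at 15.0 FPKM in both wild-type libraries. Such copies resemble other members of their families, so their values are uncertain. Dscc1, which takes part in loading the replication clamp and in sister chromatid cohesion, was at 18.5 and 15.8 FPKM. Cdyl, a chromodomain protein that reads and alters histone acylation, was at 13.9 and 17.2 FPKM. Cpxcr1 and Pwwp2b, the latter with a PWWP domain, had means of 13.4 and 10.7 FPKM.

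The membrane genes were at lower levels, with means from 10.8 to 23.7 FPKM. Tmem95, a sperm membrane protein required for fusion with the egg, was the most abundant at 24.7 and 22.7 FPKM. Catsper1, the pore-forming subunit of the sperm calcium channel, was at 13.5 and 12.3 FPKM. Tmco5b, with a coiled coil and a transmembrane segment, was at 18.003 and 15.4 FPKM. The remaining 3 are not restricted to germ cells. Ccdc109a is Mcu in RefSeq, the pore of the mitochondrial calcium uniporter, and was at 11.8 and 9.90 FPKM. Pqlc1, a PQ-loop transporter, was at 10.5 and 15.3 FPKM and Fxyd2, a regulator of the sodium pump, at 16.1 and 8.50 FPKM. Pqlc1 is Slc66a2 in RefSeq, and it was kept because names were dropped by the symbol listed. Ncrna00085, which matches the sperm-egg fusion gene Spaca6 by a synonym in RefSeq, is kept among the uncertain genes and was at 19.5 and 19.3 FPKM.

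Of the proteases, Prss52 and Prss55 stood apart from the rest. These testis serine proteases were at 45.4 and 31.3 FPKM and at 40.8 and 29.5 FPKM. They flank Prss51 in the RefSeq gene order, which was at 8.35 and 3.80 FPKM in wild-type cells and at 0 in both knockout libraries and so missed the level required. The other 5 were near the lower limit, with wild-type means from 10.1 to 11.7 FPKM. They were the Kazal-type inhibitor Spink4, the disintegrin-metalloprotease gene Adam6a, the kallikrein Klk1b8 with the neighbouring pseudogene Klk1b7-ps, and the carboxypeptidase Cpa5. Adam6a was at 9.10 and 12.9 FPKM, and Spink4 at 14.7 and 8.74 FPKM. Kallikrein genes are near copies of each other, so the values of both are uncertain.

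The 15 genes of uncertain role held the highest member of all. AI507597, annotated as a long noncoding RNA in RefSeq, was at 198 and 130 FPKM. Gm6760 was at 97.2 and 60.7 FPKM, BC048562 at 73.3 and 50.05 FPKM and Tepp, named for testis, prostate and placenta, at 66.8 and 46.2 FPKM. BC048507 was at 33.4 and 31.4 FPKM and 4930565A17, matched to a long noncoding RNA in RefSeq, at 28.4 and 26.6 FPKM. The remaining 8 besides Ncrna00085 were Gm614, Gm4787, Gm7073, Gm14725, Gm15104, Gm4907, Gm11435 (Heatr9 in RefSeq) and Fndc8, with means from 10.8 to 17.2 FPKM.

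At the lower limit the choice was a fine one. The members of lowest wild-type mean were Arg2, Klk1b8 and Cpa5, at 10.4, 10.4 and 10.1 FPKM. Just outside stood Bpifa3, Micalcl and Gm5901, all at 0 in both knockout libraries, with wild-type means of 9.96, 9.93 and 9.43 FPKM. Outside on the knockout side stood genes with a trace of signal. Insl3, the peptide hormone that marks Leydig cells, was at 54.8 and 30.3 FPKM in wild-type cells and at 4.61e-15 and 1.47e-242 FPKM in knockout cells, and missed the rule only because these estimates are not exactly 0. Hbb-b1, a haemoglobin gene of red blood cells, was at 21.2 and 22.2 FPKM against 7.64e-05 and 0 FPKM. Transcripts of cells other than spermatids thus showed the members' pattern too, and neither gene is a marker of haploid germ cells.

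Zeros in the knockout were set against the level in the wild type for all symbols, with no name dropped. Of 4288 symbols with a wild-type mean of at least 10 FPKM, 150 were at 0 in knockout library 1, 235 in knockout library 2 and 115 in both. The share at 0 in both fell from 4.60% between 10 and 20 FPKM to 2.35% between 20 and 50, 2.11% between 50 and 100, and 0.979% at 100 FPKM or more. The reverse pattern was not found: of 3589 symbols with a knockout mean of at least 10 FPKM, 0 were at 0 in both wild-type libraries. The number of members depends on knockout library 1, since without it, requiring 0 in knockout library 2 alone, 138 symbols met the rule, while 77 did without knockout library 2.

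**Figure D2:**
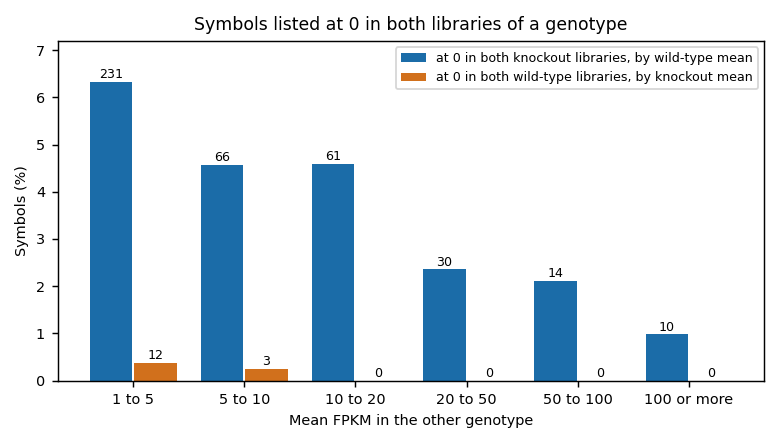
Percentage of symbols listed at 0 in both libraries of a genotype (bars start at 0, counts above them), by mean FPKM in the other genotype. From 10 FPKM upwards 61, 30, 14 and 10 symbols were at 0 in both knockout libraries and 0 were at 0 in both wild-type libraries.

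Some features that the rule did not use were more frequent among the members than among other genes, though most members lacked each of them. Chromosome and gene structure were taken by symbol from GENCODE M21 (GRCm38) for 57 of 57 members and for 98.6% of the 4231 other genes with a wild-type mean of at least 10 FPKM. Of the members 13 (22.8%) lay on the X chromosome, against 100 (2.40%) of the other genes. They included Acot9, Dusp21, H2afb1, Gm5382, Cypt15, Actrt1, Cpxcr1 and 6 genes with uncertain roles. X-linked genes are silenced during meiosis and partly transcribed again in round spermatids. Of the other chromosomes, 11 and 12 each held 5 members, or 8.77%, against 8.53% and 3.64% of the other genes.

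Many members were small and simply built. A single exon was annotated for 11 members (19.3%) and for 198 of the other genes (4.75%). Among them were Dusp21, Acot10, Actrt1, Zdhhc25, Fscb, Adam6a, H2afb1 and Gm5382. The median number of exons was 4 against 7, and the median transcript length 1368 against 1841 bases, with 35.1% and 19.3% of transcripts under 1000 bases. The median GC content of transcripts was 49.8% in both. The median coding length was similar, 964.5 bases over 52 coding members and 981 bases in the other genes. These comparisons are given as counts and shares, with no test.

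**Figure D3:**
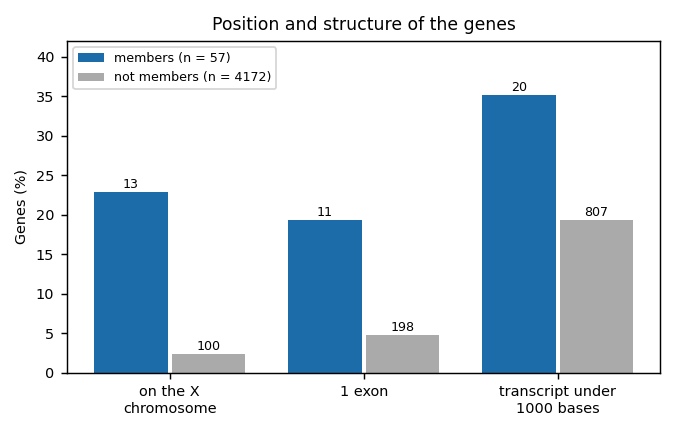
Percentage of members (blue, n = 57) and of other genes with a wild-type mean of at least 10 FPKM (grey, n = 4172) that lie on the X chromosome, have 1 exon or have a transcript under 1000 bases, with counts above the bars. Members exceed the other genes in all 3, with 22.8% against 2.40% on the X chromosome.

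Counted the other way and with no name dropped, 18 of 113 X-linked genes with a wild-type mean of at least 10 FPKM (15.9%) were at 0 in both knockout libraries, against 96 of 4116 (2.33%) on other chromosomes. The X-linked genes were at lower levels, with a median wild-type mean of 19.4 against 34.8 FPKM, and zeros were more frequent at lower levels. Among genes with 1 exon the share at 0 was 8 of 22 (36.4%) on the X chromosome and 11 of 187 (5.88%) elsewhere. With more exons it was 10 of 91 (10.99%) and 85 of 3929 (2.16%). By length it was 5.56% under 1000 bases, 3.06% from 1000 to under 2000 bases and 1.16% in longer transcripts. Short transcripts yield fewer fragments at the same FPKM, and the part of length in the zeros was not tested.

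Genes next to the members were read from the RefSeq order, in which 56 members could be placed. Members were neighbours of each other in 2 cases, Iqcf4 with Iqcf6 and Klk1b7-ps with Klk1b8. Among 107 other neighbours, 20 had a wild-type mean of at least 10 FPKM, and 2 of these were at 0 in both knockout libraries. Of all 4288 symbols of that level, members included, 2.68% were at 0 in both. The 2 neighbours were 4933402P03Rik beside Spem1, at 21.7 and 19.2 FPKM in wild-type cells, and 4930567H17Rik beside Gm14725, at 18.8 and 12.8 FPKM. Both were among the symbols dropped by name. Of the 20, 10 had both knockout values below both wild-type values and 5 had both above, where 39.2% and 26.3% of all 4288 symbols of that level did so. Abundant neighbours of members differed from each other. Tekt1, a tektin of the tail next to Fbxo39, was at 621 and 528 FPKM in wild-type cells, with 565 and 365 in the knockout. Cox6b2, next to Fam71e2, was at 2256 and 1586 FPKM in wild-type cells, with 2761 and 4843 in the knockout. Prdx4, next to Acot9, fell from 158 and 124 FPKM in wild-type cells to 10.3 and 5.12 FPKM. 1700003F12Rik, next to Necab3, fell from 588 and 474 FPKM to 5.995 and 3.76 FPKM.

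The wild-type libraries differed from each other in a direction that the rule did not fix. Of the members, 46 of 57 (80.7%) were higher in wild-type library 1 than in library 2, against 54.2% of 4230 other genes. The median ratio of library 1 to library 2 was 1.19 for the members and 1.03 for the other genes. The 11 members that were lower in library 1 were Fam71e2, Fscb, Morn3, Necab3, Cdyl, Pwwp2b, Pqlc1, Adam6a, Gm4787, Gm14725 and Gm11435. Of 17 round spermatid markers, which include the member Catsper1, 14 (82.4%) were higher in library 1, with a median ratio of 1.13. Most of them, and most elongating spermatid markers, had a wild-type mean above 100 FPKM. At that level 79.6% of the other genes were higher in library 1, with a median ratio of 1.20. Of the elongating spermatid markers 11 of 12 were higher there, with a median ratio of 1.54, and of the spermatocyte markers 5 of 10, with a median ratio of 1.02. At similar level the members still stood higher: between 20 and 50 FPKM 12 of 12 members and 46.7% of 1263 other genes were higher in library 1. Between 10 and 20 FPKM it was 27 of 37 members and 37.6% of 1290 other genes. From 50 to 100 FPKM it was 5 of 6 and 61.9% of 659, and at 100 FPKM or more 2 of 2 and 79.6% of 1018. This compares 2 libraries and carries no test.

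**Figure D4:**
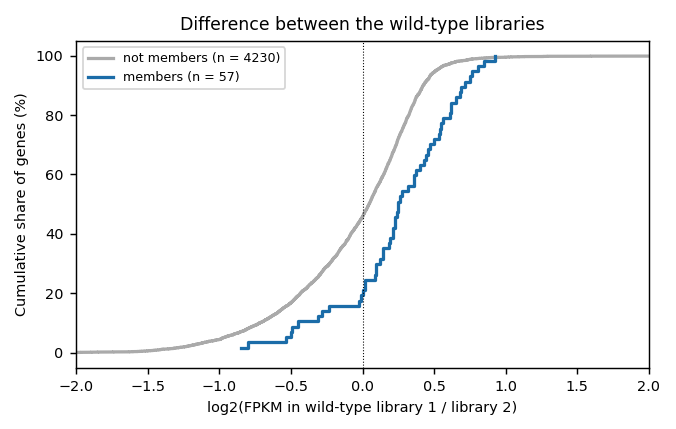
Cumulative percentage of genes by the log2 ratio of FPKM in wild-type library 1 to library 2, for members (blue, n = 57) and other genes of at least 10 FPKM (grey, n = 4230); the horizontal axis is limited to 2 on either side. The members' curve lies to the right, with 80.7% against 54.2% of genes above a ratio of 1.

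Other genes of the families of Dusp21 and Acot9 were tested in the limma fit on log2(FPKM + 1), with Benjamini-Hochberg adjustment over all 9124 genes. Of 19 tested phosphatases besides Dusp21, 4 fell, 1 rose and 14 did not pass, with 13.4% lower and 1.95% higher over all genes tested. Their median log2 change was 0.08 where all genes had -0.23, but it was -0.21 when low genes were kept, 0.61 with a mean of at least 5 FPKM and between -0.12 and 0.06 when each library was left out. Dusp3, which acts on MAP kinases, stood at 6.33 and 4.52 FPKM in wild-type cells and fell to 0.102 and 0.0273 FPKM, with a change of -2.58 ± 0.34 (log2, SE; limma adjusted p = 0.00516). The cell-cycle phosphatase Cdc14a was at 6.68 and 5.93 FPKM in wild-type cells and fell by 2.40 on the log2 scale to 0.421 and 0.343 FPKM (limma adjusted p = 0.00616). Its relative Cdc14b, at 6.04 and 6.70 FPKM, fell by 2.39 to 0.514 and 0.302 FPKM (limma adjusted p = 0.00664). Dusp10, at 3.28 and 2.88 FPKM, fell by 1.84 to 0.288 and 0 FPKM (limma adjusted p = 0.0155). Dusp15 rose from 11.3 and 8.01 FPKM to 25.4 and 34.8 FPKM, a change of 1.54 ± 0.36 (log2, SE; limma adjusted p = 0.0385). In each of these genes the knockout values lay outside the range of the wild-type values. Dusp18 had the coding sequence closest to that of Dusp21, with 70.4% identity over the longer one, and stood at 4.20 and 5.52 FPKM in wild-type cells, with 6.69 and 3.90 FPKM in knockout cells (limma adjusted p = 0.918). The most abundant phosphatases did not pass. Dusp13 was at 247 and 200 FPKM, with 143 and 126 in the knockout (limma adjusted p = 0.143). Ptpmt1, the mitochondrial phosphatase, was at 139 and 119 FPKM, with 216 and 236 in the knockout (limma adjusted p = 0.108).

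**Figure D5:**
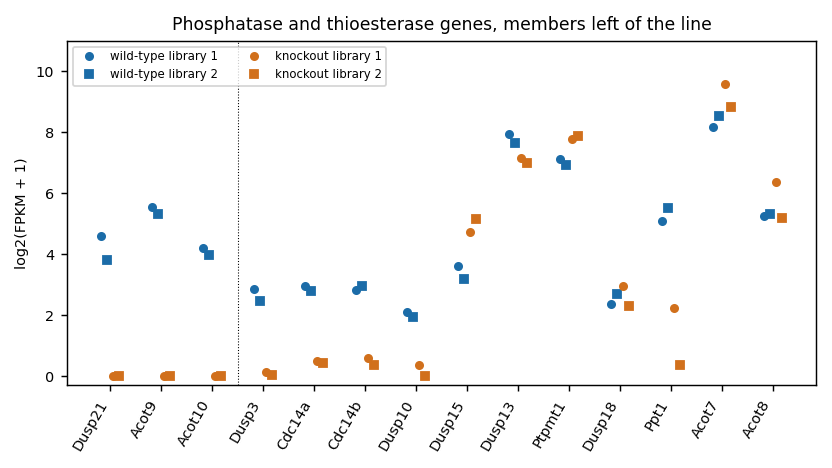
log2(FPKM + 1) in each library (blue wild type, orange knockout; circles library 1, squares library 2) for Dusp21, Acot9 and Acot10, left of the dotted line, and other phosphatase and thioesterase genes. The members are at 0 in both knockout libraries, while Dusp18, Acot7 and Acot8 have knockout values like or above those of the wild type.

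Of 6 tested thioesterases besides Acot9 and Acot10, 1 fell, 0 rose and 5 did not pass, a share near the 13.4% over all genes and so not a result about the family. Their median log2 change was -0.25, but 0.09 with a mean of at least 5 FPKM and 0.17 without knockout library 2. Ppt1, the lysosomal enzyme that removes palmitate from proteins, fell from 32.7 and 44.5 FPKM to 3.75 and 0.289 FPKM, a change of -3.98 ± 0.65 (log2, SE; limma adjusted p = 0.0117). Acot7, which acts on long-chain acyl-CoA, was the most abundant, at 290 and 369 FPKM, with 759 and 456 in the knockout (limma adjusted p = 0.164). Acot8, the peroxisomal member, was at 37.3 and 39.2 FPKM, with 80.8 and 35.6 in the knockout (limma adjusted p = 0.499). Thus transcripts of the family remained in the knockout. MAP kinases, the substrates of several phosphatases of the Dusp family, were read beside them in 1 list with the kinases that act on MAP kinases. The latter are not counted here as Dusp substrates. Of 12 tested, 0 fell and 1 rose (4 had an unadjusted p under 0.05 in limma), with a median of -0.48, which was 0.24 without knockout library 2. Mapk13 rose from 0.390 and 1.801 FPKM to 6.72 and 5.87 FPKM, a change of 1.88 ± 0.45 (log2, SE; limma adjusted p = 0.0428). Map2k2 was at 16.3 and 31.1 FPKM, with 102 and 53.9 in the knockout (limma adjusted p = 0.0675). Mapk3 was at 15.6 and 16.7 FPKM, with 22.0 and 38.5 in the knockout (limma adjusted p = 0.203).

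Most of these calls depend on the libraries and settings used. Without wild-type library 1 the limma adjusted p was 0.0749 for Cdc14a, 0.0959 for Cdc14b, 0.156 for Dusp10, 0.279 for Dusp15, 0.324 for Ppt1 and 0.329 for Mapk13, and only Dusp3 of the 7 genes called still passed. Without wild-type library 2 none of the 7 passed, with limma adjusted p from 0.0655 for Dusp3 to 0.375 for Ppt1, and over all genes 0 passed, with 1412 at an unadjusted p under 0.05. Leaving out a knockout library added calls: Dusp13, Ptpmt1 and Mapk3 passed without library 1 (limma adjusted p = 0.0498, 0.0336 and 0.00353), Acot7 and Acot8 without library 2 (limma adjusted p = 0.00945 and 0.0115), and Map2k2 without either (limma adjusted p = 0.00217 and 3.9e-08). Other settings ended calls as well. With a pseudocount of 0.1 the limma adjusted p was 0.0565 for Dusp15, 0.0598 for Ppt1 and 0.101 for Mapk13. With no filter on low values it was 0.0577 for Dusp10, 0.0721 for Dusp15, 0.0626 for Ppt1 and 0.116 for Mapk13. With the library number as a replicate block it was 0.0836 for Dusp15 and 0.0558 for Mapk13. Map2k2 passed with a mean of at least 5 FPKM, with quantile normalization and with a block that paired library 1 of each genotype with library 2 of the other, chosen after seeing the data (limma adjusted p = 0.0485, 0.0197 and 0.0127).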

How the data were processed

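Each deposited table holds the authors' FPKM per gene for its library, per the file headers. Of tools and builds, the submitters' processing notes list Cufflinks 2.0.2, TopHat2 2.0.6, mm9 and Cuffdiff. Roles, settings and any use of strand were not given in the sources used here. Overlapping genes on opposite strands cannot be told apart. NEBNext Ultra libraries were made, per the labels' protocols. Each table had 23021 rows, and rows of the 259 symbols listed more than once were summed. Members followed the rule in the report. Members, lists and kinds of genes were chosen with earlier results of these data known.

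The genes named were Dusp21, Acot9, the 12 most abundant members, the 3 most abundant of each kind, those at the limits of the rule, and, of the phosphatase, thioesterase and MAP kinase lists, up to 4 genes past the threshold per direction and the 2 most abundant. The other members were named after their values were seen, as were the neighbours Prss51, Tekt1, Cox6b2, 1700003F12Rik, Prdx4, 4933402P03Rik and 4930567H17Rik. The closest relative of Dusp21 and Acot9 was found by coding sequence in GENCODE M21, since no protein table was used here.

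Genes with a mean of at least 1 FPKM over the 4 libraries were tested with limma 3.58.1 (R 4.3.3) on log2(FPKM + 1), with empirical Bayes moderation, a mean-variance trend, genotype as the only term, two-sided tests and a threshold of 0.05 after Benjamini-Hochberg adjustment. Log2 changes are on that scale and understate the change of low genes. The fit was tested on simulated data. Python 3.11.15 was used for the rest. Alternatives were other limits of the rule, pseudocounts of 0.1 and 5, other filters, quantile normalization, leaving out each library, and a replicate block. GENCODE and RefSeq are on GRCm38, so no coordinates other than those of the printed RefSeq windows are given.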

Additional observations from a re-analysis of the deposited data

How the results depend on the processing

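With other limits, 101 symbols met the rule at a wild-type mean of at least 5 FPKM and 20 at 20 FPKM, and the count ranged from 51 to 138 when each library was left out. With both knockout libraries under 0.1 FPKM the set held 84 symbols, which by definition include all 57 members. The X-linked share stayed between 19.5% and 26.1% in the sets tried, all of which share genes with the 57 and so are not independent. In the limma fit 1221 genes were lower and 178 higher in the knockout (87.3% of calls lower). With quantile normalization 1012 were lower and 608 higher (62.5% lower), and the median change of all genes moved from -0.23 to 0.17, so that the median of the phosphatases moved from 0.08 to 0.39, that of the thioesterases turned from -0.25 to 0.26 and that of the MAP kinases from -0.48 to 0.02. The count of higher genes was 113 with a pseudocount of 0.1 and 62 with no filter on low values, and 787 were lower with a mean of at least 5 FPKM. Leaving out each library gave 0 to 3071 lower and 0 to 984 higher genes. With 1 library left in a genotype, it was assumed to vary like the other genotype. With the library number as a replicate block 1056 were lower and 82 higher. The numbers do not pair the samples (correlation of the library differences between genotypes -0.20), and a crossed replicate block, chosen after seeing the data, gave 1416 lower and 390 higher. Dusp18 changed sign without wild-type library 1 (-0.09) and without knockout library 1 (-0.25), and was 0.40 without knockout library 2 and 0.63 with quantile normalization. Acot8 changed sign without knockout library 1 (-0.10) and was 1.06 without knockout library 2. None of the reversed values is past the threshold, and the cause was not tested. Read depth is unknown, which limits what a listed 0 can show.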

Other observations

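A limit of 0.1 FPKM in place of exactly 0 in the knockout added 27 symbols to the 57, some of them at levels above most members. Fhl5, an activator of CREM, was at 212 and 145 FPKM in wild-type cells, with 0.0598 and 0.0637 in the knockout. Lelp1, a late cornified envelope-like protein, was at 155 and 93.7 against 0 and 0.0883 FPKM, and Dpysl3, a protein of the cytoskeleton known from neurons, at 82.6 and 111 against 0.0293 and 0.0623 FPKM. Aqp7, a water and glycerol channel, was at 63.1 and 60.6 against 0.0223 and 0 FPKM, and Txndc2, the sperm thioredoxin of the tail, at 66.9 and 55.0 against 0 and 0.0367 FPKM. H1fnt, the linker histone of spermatid nuclei, was at 74.1 and 78.8 against 0.0474 and 0 FPKM.

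In the other direction the highest symbols at 0 in both wild-type libraries were AA465934, at 6.88 and 11.6 FPKM in the knockout, Vaultrc5, a vault RNA gene, at 2.20 and 12.2 FPKM, and Agr3, a protein disulfide isomerase relative, at 4.80 and 6.36 FPKM. The genes in both paragraphs were picked after their values were seen.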
